A study of Arabidopsis thaliana with 18 samples.

Results

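Arabidopsis thaliana seeds store oil, and 9 genes that open its use were followed here through RNA sequencing of dry and imbibed seeds. They encode the oil lipases SDP1 and SDP1L, the peroxisomal citrate synthases CSY2 and CSY3, isocitrate lyase (ICL), malate synthase (MLS), the peroxisomal malate dehydrogenases PMDH1 and PMDH2, and the phosphoenolpyruvate carboxykinase PCK1. The genes were chosen by locus for these functions, not by a threshold on a measured value, but with earlier results of these data known. They are 9 of the 32833 genes in the count table, and all 9 were among the 17758 that passed the filter on low counts. The groups were seeds of mkk3-1, labelled a knock-out of MKK3, seeds of mpk7_ko3, labelled a knock-out of MPK7, and wild-type Col-0 seeds, each imbibed for 6 h or dry, with 3 libraries in each of the 6 groups. Both mutants are in the Col-0 background and all seeds were freshly harvested, so no group held after-ripened seeds. Both targeted genes encode protein kinases of a mitogen-activated signalling cascade, in which MKK3 can activate MPK7. The question was how the levels of these 9 transcripts differ between imbibed and dry seeds and between the mutants and Col-0.

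In oilseeds the triacylglycerol of oil bodies is hydrolysed by lipases, and the fatty acids are taken into peroxisomes and cut to acetyl-CoA by beta-oxidation. The glyoxylate cycle then joins acetyl-CoA units into a carbon skeleton: citrate synthase condenses acetyl-CoA with oxaloacetate, isocitrate lyase splits isocitrate into succinate and glyoxylate, and malate synthase joins glyoxylate to a further acetyl-CoA. Peroxisomal malate dehydrogenase interconverts malate and oxaloacetate and so regenerates NAD+ for beta-oxidation. Phosphoenolpyruvate carboxykinase turns oxaloacetate into phosphoenolpyruvate in the cytosol, the entry to gluconeogenesis, and the sugar made from it feeds the seedling until it can photosynthesise.

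Library totals ran between 18249333 and 21036275, and the biological coefficient of variation common to all genes was 0.104. The labels do not say whether the 3 libraries of a group came from separate seed batches. The tests therefore judge group differences against the spread between these libraries, which may be technical. The state of the seeds carried 78.9% of the variance on the first principal component. On the second, with 3.95%, replicate 3 of mpk7_ko3 stood apart from replicates 1 and 2 in both states, and results that turn on it are given with and without it. Dry Col-0 was also spread on the second component (20.4, -13.0 and 4.91 for replicates 1, 2 and 3), as was dry mkk3-1 (-29.0, -7.65 and -30.0). Levels are given as CPM, a count relative to the library size after TMM scaling. MPK7 had 11.3, 13.1 and 14.3 CPM in the imbibed and 15.2, 14.3 and 14.7 CPM in the dry mpk7_ko3 libraries, against 32.3, 37.3 and 36.02 CPM in imbibed and 44.2, 38.7 and 40.9 CPM in dry Col-0. MKK3 had 7.12, 7.21 and 7.75 CPM in dry mkk3-1, against 18.6, 17.3 and 16.2 CPM in dry Col-0. In imbibed seeds, however, MKK3 had 12.7, 12.3 and 10.3 CPM in the libraries labelled mkk3-1, against 14.1, 13.4 and 12.5 CPM in Col-0, a difference that did not pass the test (log2 -0.18 ± 0.0976, adjusted p = 0.307 in edgeR), so the counts of this gene do not check the label of the imbibed mkk3-1 libraries. Imbibed mkk3-1 therefore stands for the libraries so labelled throughout. Reads counted on a gene do not show whether its protein was made.

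The sequences just before 5 of the genes are shown, chosen by their TMM-scaled levels. ICL, MLS, PMDH1 and PCK1 all had higher levels in imbibed than in dry seeds of each genotype, while CSY3 did not. Scaled by library totals, CSY3 was higher too, by log2 0.48 in mkk3-1, 0.31 in mpk7_ko3 and 0.39 in Col-0. With TMM scaling SDP1L also rose and CSY2 fell in each genotype. The windows of SDP1L and CSY2 each overlap another gene and are not shown. Each sequence shown is the 250 bases before the start of the gene on its own strand, 5′ to 3′. It was read from the RefSeq genome TAIR10.1 at the position of the deposited annotation, and none overlaps another gene. Capitals mark both copies of a direct repeat in PMDH1 and, in CSY3, the motifs CACGTG and TATCCA described next, the second of which reads TGGATA on this strand.
ICL upstream, chr3:7656054-7656303, minus strand: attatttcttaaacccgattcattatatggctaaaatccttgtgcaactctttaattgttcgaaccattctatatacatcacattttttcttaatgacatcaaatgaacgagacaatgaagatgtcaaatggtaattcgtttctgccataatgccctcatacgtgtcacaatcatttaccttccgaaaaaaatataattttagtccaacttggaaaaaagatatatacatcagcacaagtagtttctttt
MLS upstream, chr5:1034974-1035223, minus strand: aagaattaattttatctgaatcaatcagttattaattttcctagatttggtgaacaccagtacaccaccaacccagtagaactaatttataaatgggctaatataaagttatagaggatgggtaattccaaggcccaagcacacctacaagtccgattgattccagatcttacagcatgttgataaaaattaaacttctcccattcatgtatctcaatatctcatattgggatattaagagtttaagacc
PCK1 upstream, chr4:17806706-17806955, minus strand: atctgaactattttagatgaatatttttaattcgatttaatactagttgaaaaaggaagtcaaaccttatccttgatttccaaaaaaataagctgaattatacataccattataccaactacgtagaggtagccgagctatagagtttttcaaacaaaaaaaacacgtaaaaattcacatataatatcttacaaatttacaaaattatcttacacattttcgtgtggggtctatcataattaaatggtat
PMDH1 upstream, chr2:9692155-9692404, minus strand: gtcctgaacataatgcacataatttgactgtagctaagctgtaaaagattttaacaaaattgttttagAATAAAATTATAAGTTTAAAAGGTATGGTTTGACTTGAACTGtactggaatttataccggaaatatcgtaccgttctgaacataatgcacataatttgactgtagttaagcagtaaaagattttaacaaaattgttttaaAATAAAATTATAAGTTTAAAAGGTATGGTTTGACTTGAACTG
CSY3 upstream, chr2:17806074-17806323, minus strand: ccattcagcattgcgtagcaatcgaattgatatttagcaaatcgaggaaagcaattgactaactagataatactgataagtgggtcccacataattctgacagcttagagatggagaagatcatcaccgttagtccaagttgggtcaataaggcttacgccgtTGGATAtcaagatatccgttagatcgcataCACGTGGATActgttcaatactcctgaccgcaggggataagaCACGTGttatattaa

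Motifs known from plant promoters were searched on both strands in these windows for all the 9 genes. They were the G-box CACGTG, RY core CATGCA, GCC box GCCGCC and TATCCA element, the first and last sharing bases once in CSY3. The windows of ICL, MLS, PCK1 and PMDH1 held none of them. The CSY3 window held 2 G-boxes, starting 57 and 15 bases before the gene, and 2 TATCCA elements, starting 87 and 53 bases before it, and 1 TATCCA element lay in the window of PMDH2. Among the 27443 windows of the same length before protein-coding genes, 6.49% held a G-box, 8.43% an RY core, 1.87% a GCC box and 13.6% a TATCCA element. The PMDH1 window held an exact direct repeat of 42 bases whose copies start 182 and 42 bases before the gene, 140 bases from start to start. The letters just before both copies are also nearly the same, so the exact repeat is the end of a longer inexact one. The exact repeat was looked for after the letters had been seen, and 0.106% of the 27443 windows held an exact direct repeat of that length. A match is a description of the letters, and the absence of a match says only that these letters are not in this window.

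**Figure D1:**
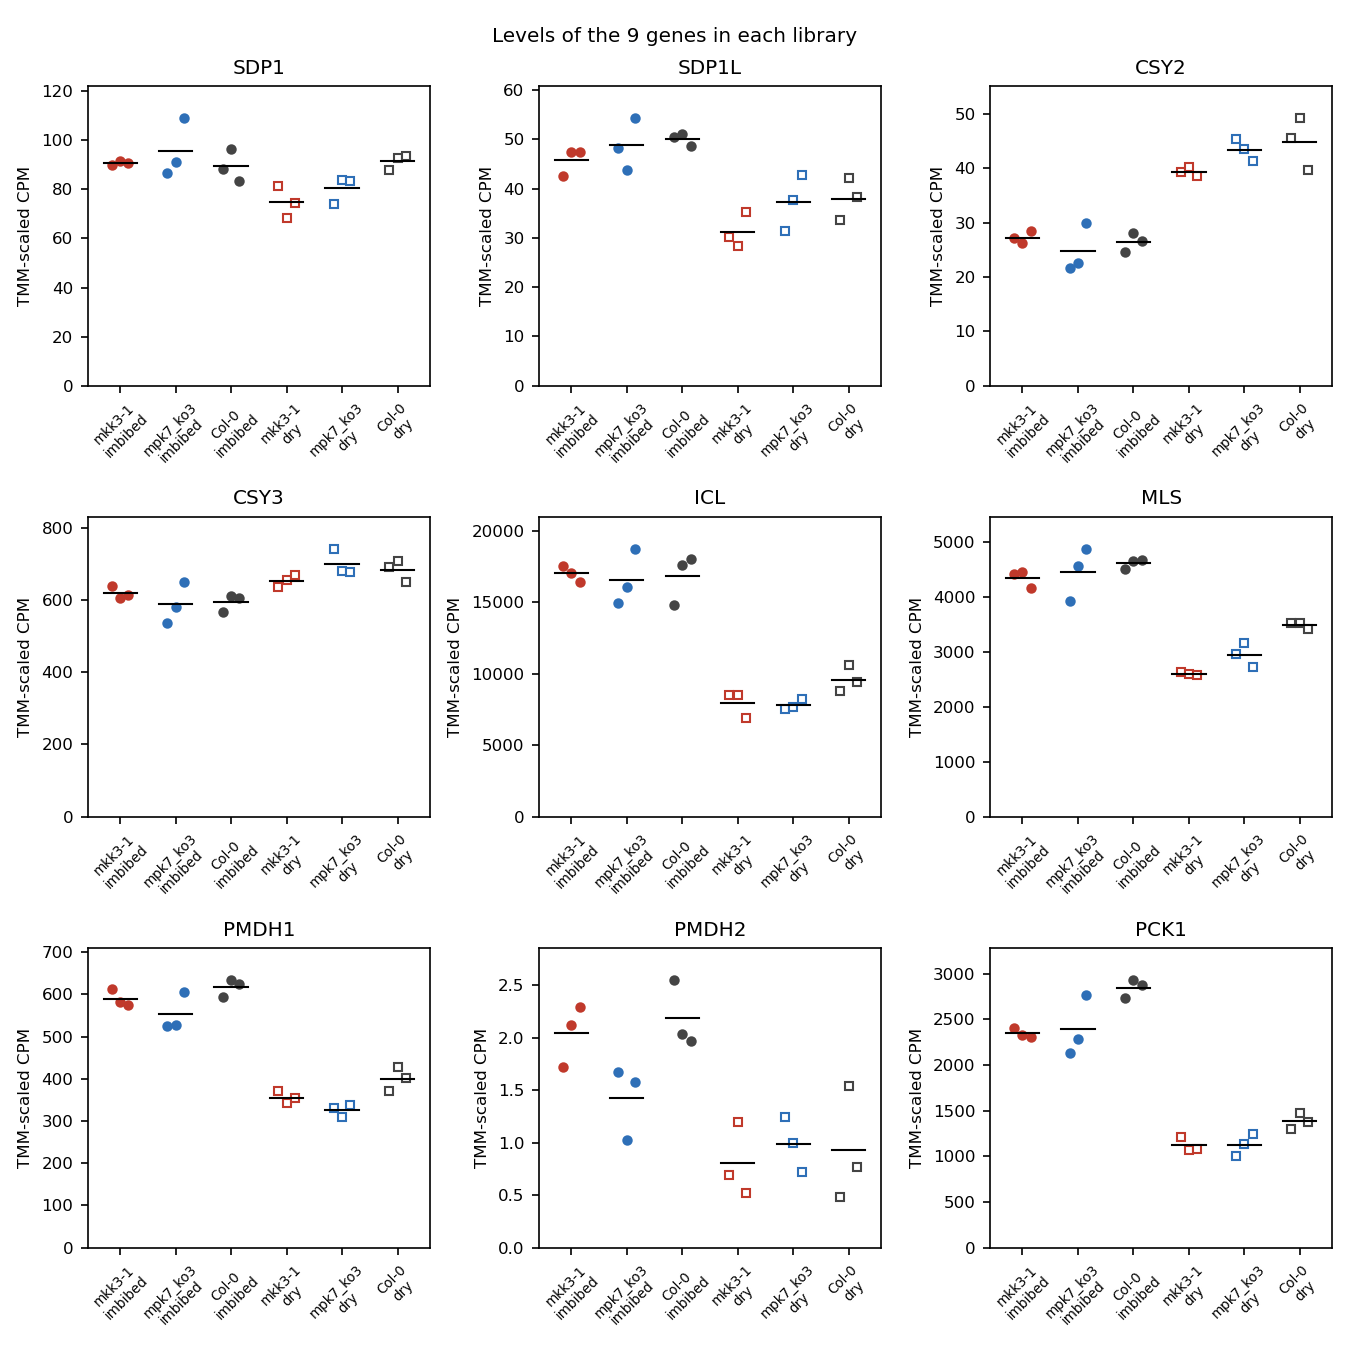
Levels of the 9 genes in each of the 18 libraries, as CPM after TMM scaling (vertical axes from 0), with imbibed groups (filled circles) left of dry groups (open squares), mutants left of Col-0, and a line at each group mean. ICL, MLS, PMDH1 and PCK1 had every imbibed library above every dry library, CSY2 had every imbibed library below every dry library, and the scales differ between panels (PMDH2 stayed under 3 CPM).

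The 9 genes differed by orders of magnitude in level. Divided by the length of the merged exons, in CPM per kilobase, ICL was the highest in every group, with 7690.2 ± 257 in imbibed mkk3-1, 7491 ± 877 in imbibed mpk7_ko3 and 7600.4 ± 787 in imbibed Col-0, and 3602 ± 426, 3526 ± 172 and 4336 ± 407 in dry mkk3-1, mpk7_ko3 and Col-0 (mean ± SD, n = 3). Among all 17758 genes tested, ICL ranked 4, 5 and 4 by this measure in imbibed mkk3-1, mpk7_ko3 and Col-0, and 33, 41 and 29 in the dry seeds of the same genotypes. MLS was next, ranked 18, 20 and 17 in imbibed and 76, 75 and 71 in dry seeds, and PCK1 was the third of the 9, ranked 37, 46 and 35 in imbibed and 192, 195 and 164 in dry seeds. These 3 transcripts were thus among the most abundant of the imbibed seed.

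Below PCK1 the order was CSY3, PMDH1, SDP1, CSY2, SDP1L and PMDH2 in dry seeds of each genotype, with no overlap between the library values of neighbours. In dry Col-0 the per-kilobase levels were 359 ± 15.6 for CSY3, 201 ± 14.2 for PMDH1, 24.9 ± 0.845 for SDP1, 18.05 ± 1.95 for CSY2, 11.8 ± 1.32 for SDP1L and 0.484 ± 0.285 for PMDH2. In imbibed seeds SDP1L stood above CSY2 in each genotype, with 15.5 ± 0.389 against 10.6 ± 0.699 in Col-0. CSY3 and PMDH1 overlapped in imbibed mpk7_ko3 and imbibed Col-0, where their means were 312 ± 12.9 and 309 ± 10.3, and not in imbibed mkk3-1. PMDH2 rested on 24 to 62 counts per library in imbibed and 7 to 26 in dry seeds, so its fold changes are loose. Together the 9 genes took 3.09% ± 0.0785, 2.96% ± 0.350 and 3.14% ± 0.248 of all counts in imbibed mkk3-1, mpk7_ko3 and Col-0, and 1.08% ± 0.0805, 1.06% ± 0.0892 and 1.27% ± 0.124 in the dry seeds of these genotypes (SD, n = 3 each), most of it from ICL.

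In Col-0, 6 of the 9 genes rose with imbibition, 2 fell and 1 did not pass the test. PCK1, ICL and PMDH1 rose by log2 1.04, 0.81 and 0.62, MLS and SDP1L by less, and the low PMDH2 by 1.21, while the citrate synthases CSY2 and CSY3 fell. Fold changes are log2 values ± SE from edgeR's quasi-likelihood test with n = 3 libraries a group, and a gene rose or fell where its p-value, adjusted over all genes by Benjamini and Hochberg, was below 0.05. Over all genes tested, 74.9% were called in this comparison, 38.8% higher and 36.1% lower in imbibed seeds, so 8 calls among 9 genes are close to the background. The median change was 0.40 over the 9 genes and 0.064 over all genes, where rises and falls offset each other. Without regard to sign, the median was 0.62 over the 9 genes and 0.78 over all genes. In bulk RNA, fewer cells of a type and less RNA per cell cannot be told apart.

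SDP1L rose in Col-0, while no change of SDP1 was called there. SDP1, the main oil lipase of Arabidopsis seeds, had 88.3, 96.6 and 83.6 CPM in imbibed Col-0, against 87.8, 92.8 and 93.5 CPM in dry Col-0. These values overlapped, with a log2 change of -0.030 ± 0.0851 (adjusted p = 0.757), and the sign depends on the scaling, being 0.13 with upper-quartile factors and 0.56 with library totals. SDP1L, its paralogue, had 50.4, 51.1 and 48.6 CPM in imbibed Col-0, against 33.6, 42.1 and 38.3 CPM in dry Col-0, all 3 higher, and rose by log2 0.40 ± 0.108 (adjusted p = 0.00257). In the mutants both lipases rose with imbibition: SDP1 by 0.28 ± 0.0854 in mkk3-1 (adjusted p = 0.00634) and by 0.25 ± 0.0853 in mpk7_ko3 (adjusted p = 0.0137), and SDP1L by 0.55 ± 0.109 in mkk3-1 and 0.39 ± 0.109 in mpk7_ko3. The mpk7_ko3 rise of SDP1 turned on single libraries, with an adjusted p of 0.129 without imbibed replicate 3, 0.0887 without dry replicate 1 and 0.108 without replicate 3 of both states (log2 0.17).

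CSY2, which makes citrate from acetyl-CoA in the peroxisome, had 24.6, 28.1 and 26.5 CPM in imbibed Col-0, against 45.6, 49.2 and 39.6 CPM in dry Col-0. All 3 imbibed libraries were lower and CSY2 fell by log2 0.76 ± 0.102 (adjusted p = 9.48e-07). It also fell in mkk3-1 (-0.53 ± 0.102, with 27.1, 26.2 and 28.4 CPM in imbibed and 39.4, 40.2 and 38.6 CPM in dry seeds) and in mpk7_ko3 (-0.81 ± 0.103, with 21.6, 22.6 and 29.8 CPM in imbibed and 45.3, 43.5 and 41.3 CPM in dry seeds), though scaled by library totals it fell by only 0.17 on the log2 scale in Col-0 (adjusted p = 0.152) and stood at 0.023 in mkk3-1. CSY3, with the same reaction and a far higher level, had 566, 611 and 605 CPM in imbibed Col-0, against 691, 709 and 651 CPM in dry Col-0. The groups did not overlap and CSY3 fell slightly, by log2 0.20 ± 0.0784 (adjusted p = 0.0246), but its direction flipped to 0.39 with library totals, and the call was lost without dry replicate 1 or 2 or imbibed replicate 1 (adjusted p = 0.0501, 0.0834 and 0.104). It was also lost with upper-quartile factors (-0.043, adjusted p = 0.615) and with no filter on low counts (adjusted p = 0.0733). In mpk7_ko3 CSY3 fell by 0.25 ± 0.0784 (adjusted p = 0.00802), whereas with library totals it was higher in imbibed seeds by 0.31 (adjusted p = 0.00126). That call was lost with upper-quartile factors (-0.10, adjusted p = 0.232), with only the libraries compared (adjusted p = 0.0535) and without imbibed replicate 1 (adjusted p = 0.0599). In mkk3-1 the change was -0.078 ± 0.0784 (adjusted p = 0.376), and with library totals CSY3 was higher in imbibed seeds by 0.48.

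ICL and MLS, the 2 enzymes that set the glyoxylate cycle apart from the citric acid cycle, both rose in each genotype. ICL had 14827, 17591 and 18042 CPM in imbibed Col-0, against 8816, 10580.4 and 9390.0 CPM in dry Col-0, a rise of log2 0.81 ± 0.121 (adjusted p = 4.23e-06). All imbibed values lay above all dry values. In mkk3-1 it had 17552, 17082 and 16421 CPM in imbibed seeds, against 8496, 8536 and 6884 CPM in dry seeds (1.09 ± 0.122), and in mpk7_ko3 14934, 16079 and 18719.5 CPM in imbibed seeds, against 7524, 7646 and 8237 CPM in dry seeds (1.09 ± 0.122). MLS had 4509.9, 4658 and 4663 CPM in imbibed Col-0, against 3515, 3516 and 3415 CPM in dry Col-0, with replicates close together in both states, and rose by 0.40 ± 0.0915 (adjusted p = 0.000475). Its rise was 0.74 ± 0.0918 in mkk3-1, where imbibed seeds had 4411, 4452 and 4167 CPM and dry seeds 2625, 2593 and 2578 CPM, and 0.60 ± 0.0917 in mpk7_ko3, where imbibed seeds had 3922, 4553 and 4867 CPM and dry seeds 2955, 3152 and 2715 CPM. The dry libraries of both mutants lay below those of Col-0 for both genes, as set out further on with their tests.

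PMDH1, the more abundant of the malate dehydrogenase genes, had 595, 634 and 624 CPM in imbibed Col-0, against 372, 429 and 401 CPM in dry Col-0, and rose by log2 0.62 ± 0.0775 (adjusted p = 3.24e-07). It rose by 0.73 ± 0.0776 in mkk3-1 and 0.76 ± 0.0777 in mpk7_ko3, again with all imbibed above all dry libraries. PMDH2, its paralogue, had 2.55, 2.04 and 1.97 CPM in imbibed Col-0, against 0.480, 1.54 and 0.770 CPM in dry Col-0 (log2 1.21 ± 0.368, adjusted p = 0.00586). It rose in mkk3-1 (1.35 ± 0.375, adjusted p = 0.00303) but no change was called in mpk7_ko3 (0.54 ± 0.379, adjusted p = 0.204), where library totals gave log2 1.1 and a call (adjusted p = 0.0116). PCK1 had 2735, 2932 and 2883 CPM in imbibed Col-0, against 1305, 1474 and 1377 CPM in dry Col-0, with no overlap (log2 1.04 ± 0.103, adjusted p = 1.02e-08). Its rise was 1.07 ± 0.103 in mkk3-1 and 1.09 ± 0.103 in mpk7_ko3, so of the 9 genes PCK1 gave the closest values in the 3 genotypes.

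**Figure D2:**
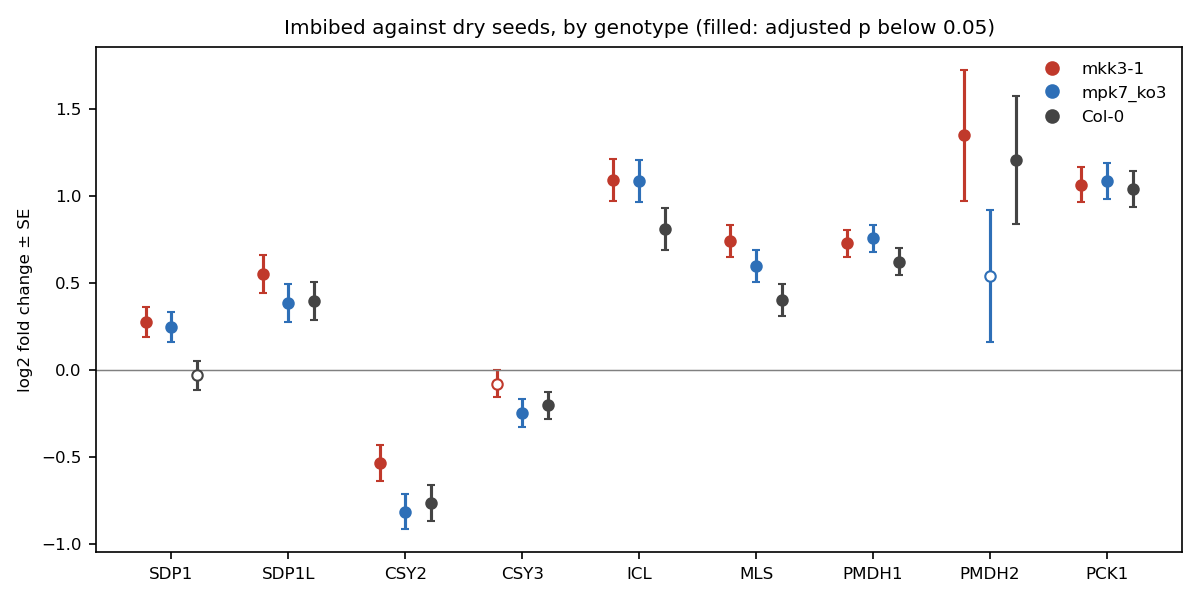
Log2 fold change ± SE of each gene in imbibed against dry seeds (vertical axis) in mkk3-1, mpk7_ko3 and Col-0, filled where the adjusted p was below 0.05, n = 3 libraries a group. CSY2 and CSY3 lay below 0 and the others mostly above it with TMM scaling, while with library totals CSY3 stood at 0.39 and SDP1 at 0.56 in Col-0.

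In mkk3-1, 7 of the 9 genes rose with imbibition and 1 fell, on a background of 73.3% of genes called, and in mpk7_ko3 6 rose and 2 fell on a background of 72.5%. The imbibed and dry values did not overlap for 8 of the 9 genes in each genotype, against 76.6% of all genes in mkk3-1, 72% in mpk7_ko3 and 78.7% in Col-0. The median change of the 9 was 0.73 in mkk3-1 and 0.54 in mpk7_ko3, against 0.048 and 0.059 over all genes. Without regard to sign, the medians of the 9 were 0.73 and 0.60, against 0.73 and 0.73 over all genes. Scaling moved the whole imbibition comparison: the signed median of all genes was 0.60 in mkk3-1, 0.61 in mpk7_ko3 and 0.66 in Col-0 with library totals, and 0.20, 0.20 and 0.22 with upper-quartile factors. Relative to those medians SDP1 and CSY3 lay below the median gene in Col-0 with TMM, upper-quartile factors and library totals. Markers of other seed parts moved with the state as well. In Col-0 the 10 seed storage and oil body markers all fell, with a summed level of 39702 to 42642 CPM in imbibed and 71641 to 90825 CPM in dry seeds. The 5 endosperm markers summed to 5157 to 6987 CPM in imbibed and 17543 to 24122 CPM in dry seeds, nearly all of it from EPR1 (log2 -1.74), with ZOU at or near 0, and of the 4 tested MAN7 and EXPA2 rose and EPR1 fell. The 5 seed coat markers summed to 9.36 to 11.7 CPM in imbibed and 4.51 to 6.04 CPM in dry seeds and of the 4 tested 2 rose and 1, PER36, fell. Most of the imbibed sum was CESA5, with a mean of 9.54 CPM in imbibed and 2.80 CPM in dry seeds. MUM2 had 0.516 CPM in imbibed and 0.0821 CPM in dry seeds, and PER36 0.0955 and 1.95 CPM. The 11 green tissue markers summed to 154 to 181 CPM in imbibed and 199.9 to 230.0 CPM in dry seeds, and of the 7 tested 4 rose and 3 fell, LHCB4.1 having 46.8 CPM in imbibed and 177 CPM in dry seeds and RBCS1A 108 and 28.6 CPM. The part of these markers in the changes of the 9 genes was not tested.

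Ratios within a library need no scaling between libraries, so 4 ratios of counts per length were compared, the paralogue pairs and ICL over MLS. CSY2 fell relative to CSY3 on imbibition. The ratio CSY2/CSY3 was 0.0326 to 0.0355 in imbibed mkk3-1, 0.0298 to 0.0352 in imbibed mpk7_ko3 and 0.0334 to 0.0352 in imbibed Col-0, and 0.0443 to 0.0474, 0.0467 to 0.0492 and 0.0467 to 0.0533 in dry mkk3-1, mpk7_ko3 and Col-0. No imbibed library reached a dry one. The mean difference was log2 -0.53 (adjusted p = 0.0015, exact permutation test within genotype over 8000 arrangements, two-sided, adjusted over 12 ratio tests; the unadjusted p of 0.00025 was the smallest the design allows). ICL rose relative to MLS, with ICL/MLS of 3.56 to 3.69, 3.28 to 3.57 and 3.05 to 3.59 in imbibed mkk3-1, mpk7_ko3 and Col-0 and 2.48 to 3.06, 2.25 to 2.82 and 2.33 to 2.79 in the dry seeds of these genotypes (log2 0.42, adjusted p = 0.0015, exact permutation test). SDP1 fell relative to SDP1L, with SDP1/SDP1L of 1.68 to 1.86, 1.58 to 1.83 and 1.51 to 1.66 in imbibed mkk3-1, mpk7_ko3 and Col-0 and 1.86 to 2.37, 1.72 to 2.08 and 1.94 to 2.30 in the dry seeds of these genotypes, so that the states overlapped in mpk7_ko3 (log2 -0.29 over the 3 genotypes, adjusted p = 0.005, exact permutation test). PMDH1/PMDH2 was 239 to 339.5, 299 to 487 and 223 to 302 in imbibed mkk3-1, mpk7_ko3 and Col-0 and 268 to 615, 250.4 to 437 and 263 to 698 in the dry seeds of these genotypes. Its mean log2 was higher in imbibed than in dry mpk7_ko3 (8.55 and 8.31) and lower in imbibed than in dry seeds of the other genotypes, and it did not pass the test (log2 -0.37, adjusted p = 0.249, exact permutation test). None of the 8 ratio tests of a mutant against Col-0 passed by the exact permutation test, with 0 of 8 below 0.05 unadjusted and a lowest adjusted p of 0.249. The paralogues of each pair are similar in sequence and the treatment of reads that match both is not stated, so the split of counts within a pair is uncertain. How often other pairs of genes shift between the states was not tested, and 72.5% to 74.9% of single genes were called there.

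**Figure D3:**
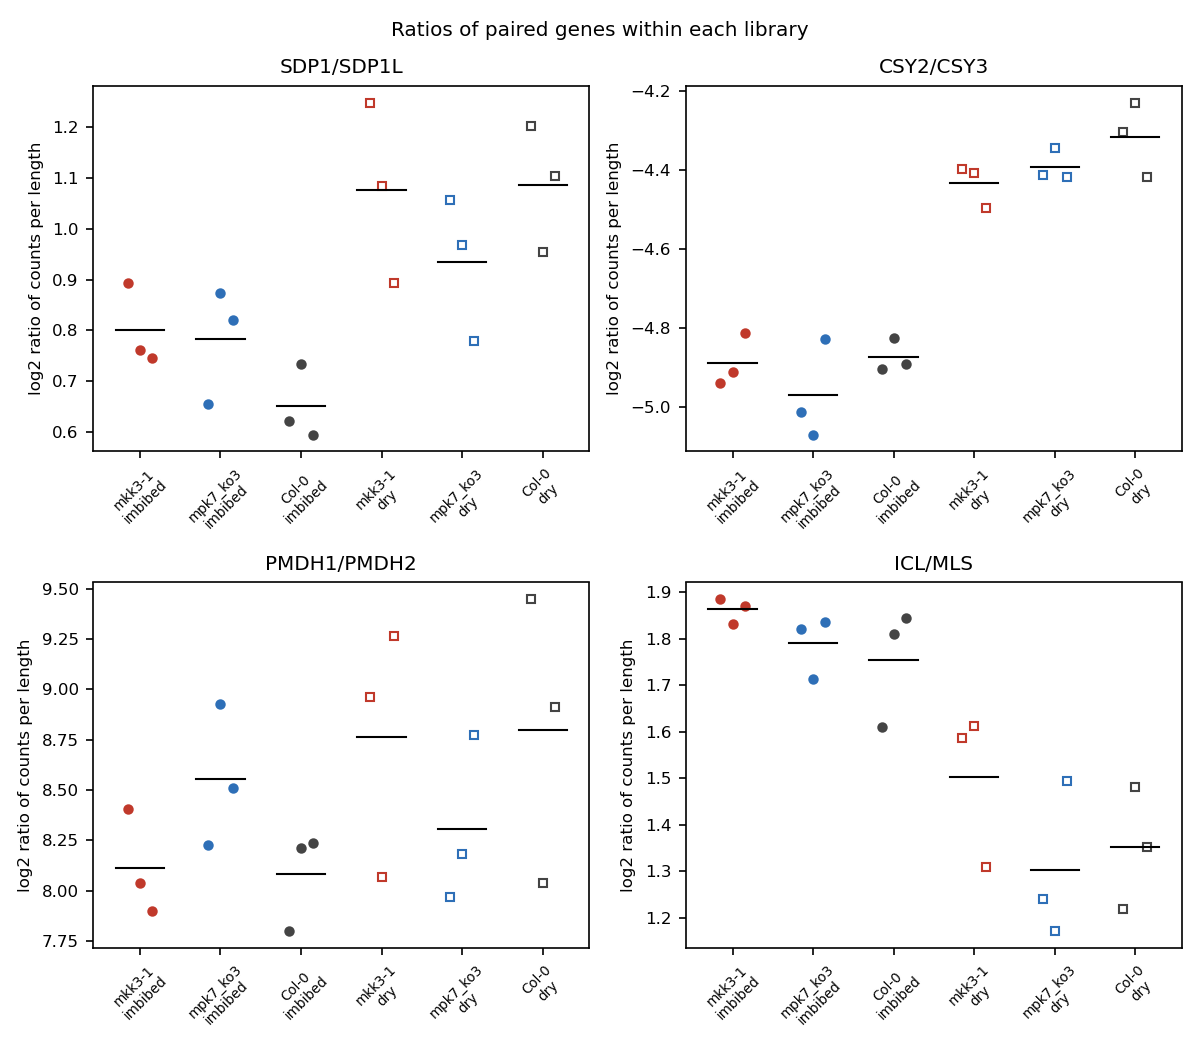
Log2 ratio of counts per length (vertical axes, ranges differ) for SDP1/SDP1L, CSY2/CSY3, PMDH1/PMDH2 and ICL/MLS in each library, imbibed groups (filled circles) left of dry groups (open squares), with a line at each group mean. Within each genotype CSY2/CSY3 lay lower and ICL/MLS higher in every imbibed library than in any dry one, and PMDH1/PMDH2 overlapped between states.

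The genes that surround these steps moved in both directions in Col-0 with TMM scaling. Of 6 genes of oil body lipolysis and glycerol use, 2 rose and 3 fell. GLI1, the glycerol kinase that phosphorylates glycerol freed from oil, rose by log2 2.68 ± 0.335 to 66.4 CPM in imbibed seeds, against 10.2 CPM in dry seeds, while AT4G24160 (-1.69), AT3G14360 (-0.85) and AT4G10790 (-0.56) fell. Of 16 genes of peroxisomal uptake and beta-oxidation, 7 rose and 8 fell. The acyl-CoA oxidase ACX1 fell by log2 1.35 ± 0.0715 (171 CPM in imbibed and 437 CPM in dry seeds) and the peroxisomal adenine nucleotide carrier PNC2 also fell (log2 -1.10 ± 0.0862). The peroxisomal NAD carrier PXN rose by 1.22 ± 0.0922 and the thiolase gene KAT5, at low counts, by 1.25 ± 0.334. Of 5 genes of peroxisomal protein import 3 fell, the receptors PEX7 (-1.05) and PEX5 (-0.56) and the membrane peroxin PEX13 (-0.33), and the protease DEG15 rose (0.28). The medians were -0.29, -0.11 and -0.33 for these 3 lists, below the 0.40 of the 9 genes and the 0.064 of all genes.

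Of 10 tested genes for citrate synthase, aconitase and malate dehydrogenase outside the peroxisomal pair, 7 rose and 3 fell, with a median of 0.70. The cytosolic malate dehydrogenase genes c-NAD-MDH1 and c-NAD-MDH2 rose by log2 1.70 ± 0.132 and 2.30 ± 0.237 and the mitochondrial mMDH1 by 1.67 ± 0.0829, while c-NAD-MDH3 fell (-3.69) at 0.0544 CPM in imbibed and 0.778 CPM in dry seeds. Of 18 tested genes of later gluconeogenesis and sucrose synthesis, 10 rose and 4 fell, with a median of 0.29. The rises included the phosphoglycerate mutase iPGAM1 (2.67 ± 0.295, 5.30 CPM in imbibed and 0.818 CPM in dry seeds), the aldolase FBA8 (1.83 ± 0.224) and the glyceraldehyde-3-phosphate dehydrogenase GAPC1 (1.48 ± 0.134), and the sucrose phosphate synthase SPS2F fell (-1.59 ± 0.197). Against the 74.9% of all genes called, 5 of 6, 15 of 16, 4 of 5, 10 of 10 and 14 of 18 genes of the 5 lists were called, in the order given.

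**Figure D4:**
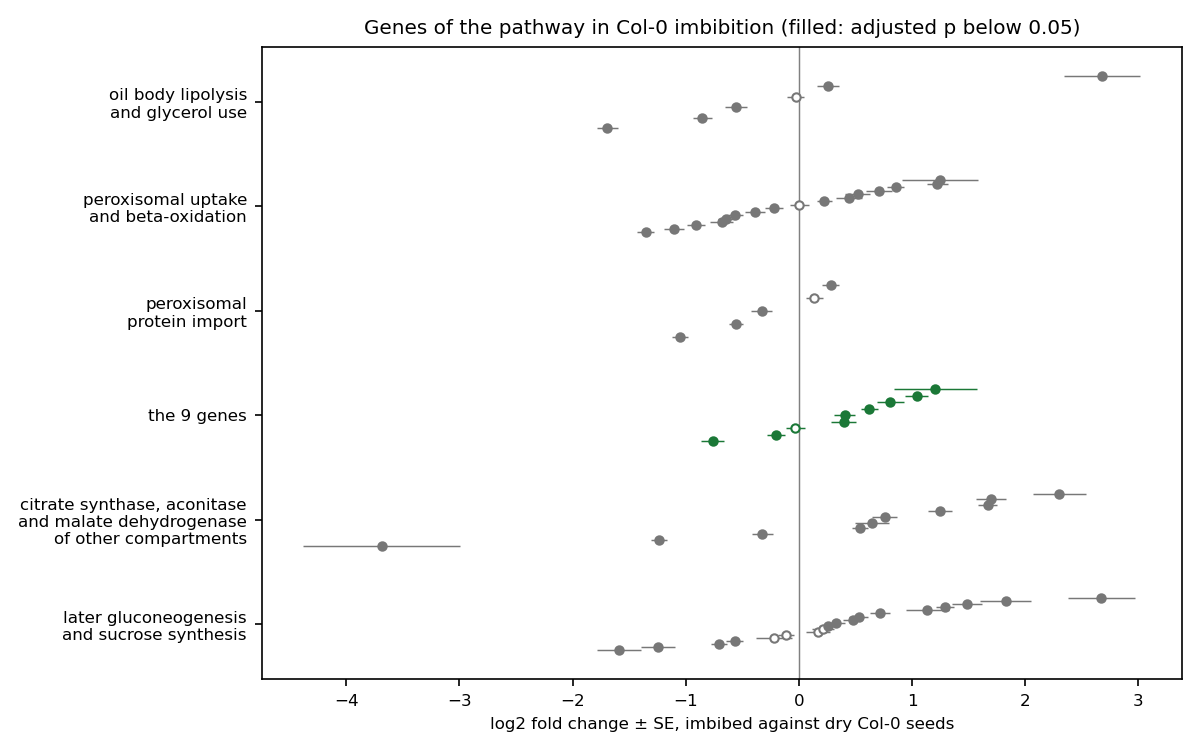
Log2 fold change ± SE (horizontal axis) of each tested gene in imbibed against dry Col-0 seeds, grouped by step of the pathway, with the 9 genes in green and filled points where the adjusted p was below 0.05, n = 3 libraries a group. With TMM scaling every group has genes on both sides of 0, from -3.69 for c-NAD-MDH3 to 2.68 for GLI1.

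In dry seeds, 1 of the 9 genes passed the test in each mutant against Col-0. MLS fell in mkk3-1 and PMDH1 fell in mpk7_ko3. Neither gene passed edgeR's test between the dry mutants themselves. Dry mkk3-1 against dry mpk7_ko3 gave log2 -0.18 ± 0.0914 for MLS (adjusted p = 0.320) and 0.12 ± 0.0775 for PMDH1 (adjusted p = 0.431). The background was 2.08% of genes called in mkk3-1, with 1.4% of genes lower, and 2.76% in mpk7_ko3, with 2.11% of genes lower. MLS had 2625, 2593 and 2578 CPM in dry mkk3-1, against 3515, 3516 and 3415 CPM in dry Col-0, with no overlap, and fell by log2 0.42 ± 0.0915 (adjusted p = 0.017). In dry mpk7_ko3 it had 2955, 3152 and 2715 CPM, again below the Col-0 values, with a change of -0.24 ± 0.0914 (adjusted p = 0.166). The mkk3-1 call was lost without Col-0 dry replicate 2 or 3 or mkk3-1 dry replicate 1 or 3 (adjusted p = 0.0541 to 0.0734, log2 between -0.44 and -0.41) and in a fit of only the libraries compared (adjusted p = 0.061).

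PMDH1 had 331, 311 and 339 CPM in dry mpk7_ko3, against 372, 429 and 401 CPM in dry Col-0, and fell by log2 0.29 ± 0.0776 (adjusted p = 0.0441). In dry mkk3-1 it had 371, 343 and 354 CPM, just below Col-0, with -0.17 ± 0.0775 (adjusted p = 0.289). The mpk7_ko3 call rested close to the threshold. It was lost without Col-0 dry replicate 2 or 3 or any 1 of the mpk7_ko3 dry libraries (adjusted p = 0.0646 to 0.216), and with library totals, no filter on low counts, the replicate number as a block or only the libraries compared (adjusted p = 0.109, 0.0561, 0.0595 and 0.220), while its size stayed between -0.34 and -0.24 under each library left out.

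ICL, PCK1 and SDP1 were also lower in every dry mutant library than in any dry Col-0 library, without passing the test. ICL had 8496, 8536 and 6884 CPM in dry mkk3-1 and 7524, 7646 and 8237 CPM in dry mpk7_ko3, against 8816, 10580.4 and 9390.0 CPM in dry Col-0 (log2 -0.27 ± 0.121 and -0.30 ± 0.121, adjusted p = 0.289 and 0.202). PCK1 had 1214, 1068 and 1083 CPM in dry mkk3-1 and 1007, 1139 and 1241 CPM in dry mpk7_ko3, against 1305, 1474 and 1377 CPM in dry Col-0 (-0.30 ± 0.102 and -0.30 ± 0.102, adjusted p = 0.136 and 0.131). SDP1 had 81.4, 68.5 and 74.6 CPM in dry mkk3-1 and 74.1, 83.9 and 83.5 CPM in dry mpk7_ko3, against 87.8, 92.8 and 93.5 CPM in dry Col-0 (-0.29 ± 0.0861 and -0.18 ± 0.0862, adjusted p = 0.0916 and 0.288). With MLS and PMDH1 this made 5 of the 9 genes whose values did not overlap with Col-0 in each mutant, on a background of 18.4% of genes in mkk3-1 and 17.8% in mpk7_ko3, and the Col-0 libraries are shared by both comparisons. Without replicate 3 of mpk7_ko3 in both states, PCK1 fell by 0.37 on the log2 scale and passed the test (adjusted p = 0.0394), but without only the dry replicate 3 the same value did not pass (adjusted p = 0.0916). In edgeR 6 of the 9 genes in dry mkk3-1 and 5 in dry mpk7_ko3 had an unadjusted p below 0.05. DESeq2 called 3 of the 9 in each mutant, MLS, SDP1 and PCK1 in mkk3-1 and PMDH1, MLS and PCK1 in mpk7_ko3. The other 4 genes, SDP1L, CSY2, CSY3 and PMDH2, overlapped with Col-0 in both mutants, with log2 changes from -0.28 to -0.065 in mkk3-1 and from -0.047 to 0.052 in mpk7_ko3. The median over the 9 was -0.27 in mkk3-1 and -0.18 in mpk7_ko3, against -0.0026 and 1.7e-05 over all genes. Without regard to sign, the medians of the 9 were 0.27 and 0.18, against 0.14 and 0.15 over all genes.

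Markers differed between the same dry groups. The 5 endosperm markers summed to 11391 to 12852 CPM in dry mkk3-1 and 18038 to 19010.0 CPM in dry mpk7_ko3, against 17543 to 24122 CPM in dry Col-0. Nearly all of each sum came from EPR1, with means of 11959, 18511 and 20112 CPM in the same order. Of the 4 tested, only EPR1 fell in mkk3-1 (log2 -0.75 ± 0.151, adjusted p = 0.0102 in edgeR), and none passed in mpk7_ko3. The 10 seed storage and oil body markers summed to 51745 to 62261 CPM in dry mkk3-1 and 53364 to 84658 CPM in dry mpk7_ko3, against 71641 to 90825 CPM in dry Col-0, and 3 of them, SESA2, SESA3 and SESA4, fell in mkk3-1. The 5 seed coat markers summed to 3.21 to 4.55, 4.997 to 6.89 and 4.51 to 6.04 CPM and the 11 green tissue markers to 149 to 193, 175 to 228 and 199.9 to 230.0 CPM in dry mkk3-1, mpk7_ko3 and Col-0, with LHCB4.1 lower in mkk3-1 (-0.38 ± 0.0913, adjusted p = 0.0301). ZOU, the endosperm factor, was at or near 0 in each. The part of these markers in the lower MLS, PMDH1, ICL, PCK1 and SDP1 levels was not tested.

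**Figure D5:**
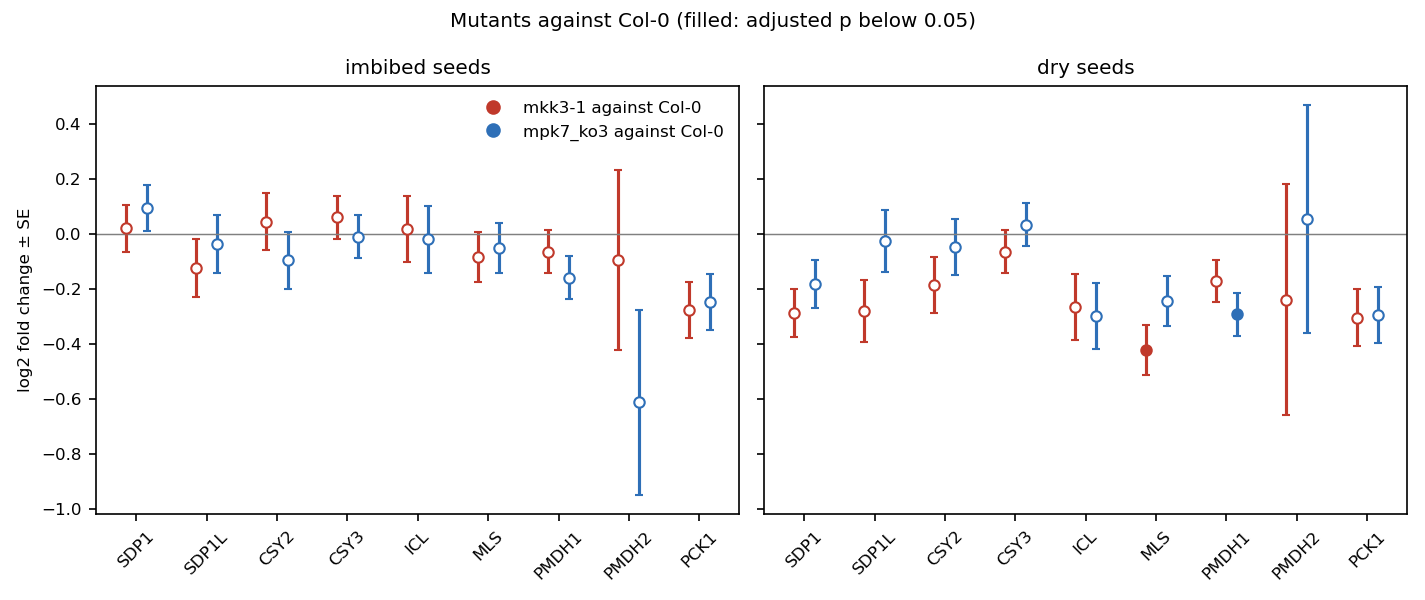
Log2 fold change ± SE of each gene in mkk3-1 and mpk7_ko3 against Col-0 (vertical axis), in imbibed seeds (left panel) and dry seeds (right panel), filled where the adjusted p was below 0.05, n = 3 libraries a group. Only MLS in dry mkk3-1 and PMDH1 in dry mpk7_ko3 are filled, and PCK1 lies between -0.30 and -0.25 in all 4 comparisons.

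After 6 h of imbibition none of the 9 genes passed edgeR's test in either set of mutant libraries, on a background of 7.95% of genes called in mkk3-1 and 9.84% in mpk7_ko3. At an unadjusted p below 0.05 there was 1 gene in each comparison, and DESeq2 called 1 in each, PCK1 in both cases. PCK1 had 2411, 2331 and 2304 CPM in the imbibed libraries labelled mkk3-1 and 2138, 2283 and 2769 CPM in imbibed mpk7_ko3, against 2735, 2932 and 2883 CPM in imbibed Col-0. The mkk3-1 values lay below Col-0 without overlap, while mpk7_ko3 replicate 3 lay inside the Col-0 range. The log2 changes were -0.28 ± 0.102 (adjusted p = 0.102) and -0.25 ± 0.102 (adjusted p = 0.133). In a fit of only the libraries compared PCK1 passed in mkk3-1 (adjusted p = 0.0126), and in mpk7_ko3 it fell by 0.37 on the log2 scale without imbibed replicate 3 (adjusted p = 0.0316) and fell by 0.37 without replicate 3 of both states (adjusted p = 0.0171). The changes of the other 8 genes ranged from -0.13 to 0.059 in mkk3-1 and, apart from -0.61 for the low PMDH2, from -0.16 to 0.094 in mpk7_ko3. ICL had 17552, 17082 and 16421 CPM in imbibed mkk3-1 and 14934, 16079 and 18719.5 CPM in imbibed mpk7_ko3, against 14827, 17591 and 18042 CPM in imbibed Col-0, and these values overlapped. Besides PCK1, the MLS and SDP1L values of imbibed mkk3-1 and the PMDH2 values of imbibed mpk7_ko3 lay below Col-0 without overlap, which 32.7% and 31% of all genes did in either direction. The 5 endosperm markers summed to 3004 to 3379.7 CPM in imbibed mkk3-1 and 5815 to 9059 CPM in imbibed mpk7_ko3, against 5157 to 6987 CPM in imbibed Col-0, nearly all of it from EPR1. EPR1 was lower in mkk3-1 (log2 -0.95 ± 0.151, adjusted p = 0.000449 in edgeR). MAN7 was lower in both mkk3-1 (-0.78 ± 0.142) and mpk7_ko3 (-0.79 ± 0.142), past the threshold in each. The 10 seed storage and oil body markers summed to 32099 to 40298, 35671 to 53098 and 39702 to 42642 CPM in imbibed mkk3-1, mpk7_ko3 and Col-0. Of these SESA2, SESA3 and SESA4 fell in mkk3-1, and CRB and OLEO1 rose in mpk7_ko3. Of 7 green tissue markers tested RBCS3B fell in mkk3-1 and RBCS1A in mpk7_ko3, and of 4 seed coat markers tested none passed in edgeR. The green tissue markers summed to 137 to 148, 106 to 124 and 154 to 181 CPM and the seed coat markers, mostly through CESA5, to 7.68 to 8.88, 7.96 to 9.98 and 9.36 to 11.7 CPM in the same groups. Their part in the PCK1 levels was not tested.

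Whether a mutant's imbibition response differs from that of Col-0 was tested as an interaction. None of the 9 genes passed in edgeR for mkk3-1 or mpk7_ko3, on backgrounds of 0.124% and 0.00563% of genes called. At an unadjusted p below 0.05 there were 2 genes in mkk3-1 (MLS and SDP1) and 1 in mpk7_ko3 (SDP1), and DESeq2 called 0 in both. The differences of response ranged from 0.026 for PCK1 to 0.34 for MLS in mkk3-1, and from -0.66 for the low PMDH2 to 0.28 for ICL and SDP1 in mpk7_ko3, with a lowest adjusted p of 0.422 and 0.599. So the call of SDP1 in the mutants and its absence in Col-0 is not shown to be a difference between genotypes. Between mkk3-1 and mpk7_ko3 themselves none of the 9 passed in edgeR or DESeq2 in either state, with 0 in imbibed and 1 in dry seeds at an unadjusted p below 0.05, on backgrounds of 0.338% in imbibed and 1.21% in dry seeds.

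Some of the surrounding genes passed in the mutants, where 7.95% and 9.84% of all genes did in imbibed and 2.08% and 2.76% in dry mkk3-1 and mpk7_ko3. Of the lists of 6, 16, 5 and 18 tested genes above, 1, 1, 0 and 1 passed in imbibed mkk3-1. In imbibed mpk7_ko3 the numbers were 0, 2, 1 and 3, and in dry seeds 0, 0, 0 and 2 in each mutant. Whether these lists hold more calls than other genes was not tested. In dry seeds the cytosolic fructose-1,6-bisphosphatase gene FBP (AT1G43670), a later step of gluconeogenesis, fell in mkk3-1 by log2 -0.45 ± 0.0895 (adjusted p = 0.0102), and SPS2F rose in mkk3-1 by 0.78 ± 0.178 and in mpk7_ko3 by 0.66 ± 0.179. In dry mpk7_ko3 c-NAD-MDH1 fell by 0.51 ± 0.131 and the phosphoglycerate kinase gene PGK (AT1G79550) fell by 0.30 ± 0.0815. In imbibed seeds the sucrose phosphate synthase gene SPS3F fell in both (log2 -0.59 ± 0.152 in mkk3-1 and -0.67 ± 0.152 in mpk7_ko3), and AIM1, a multifunctional protein of beta-oxidation, rose in both, by 0.26 ± 0.0680 and 0.22 ± 0.0680. The imbibed mkk3-1 libraries also had higher AT4G24160 (0.36), and imbibed mpk7_ko3 higher ACX1 (0.25), PEX14 (0.24) and UGP2 (0.33) and lower GAPC2 (-0.25), each with an adjusted p below 0.05. Between the mutants, PEX7 was higher in dry mkk3-1 than in dry mpk7_ko3 (0.28, adjusted p = 0.0485).

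The profiles of the 9 genes over the 6 group means were also set beside those of all other genes, as the root mean square difference of centred log2 CPM. This is a description over 6 points that share one split between imbibed and dry seeds. The closest pairs among the 9 were SDP1L with MLS (0.0916) and ICL with PCK1 (0.0979), and the farthest was CSY2 with PCK1 (0.892). Among other genes the nearest to ICL were AT5G45560 (0.0436) and AT1G07705 (0.0511), to MLS TIC21 (0.0312) and AT5G18200 (0.0432), and to PCK1 OVA4 (0.0307) and AT1G02180 (0.0329). The nearest to SDP1 were AT1G76050 (0.0396) and AT2G03270 (0.0408), to SDP1L CLPP5 (0.0278) and AT1G16690 (0.0282), to CSY2 RAD52-1 (0.0363) and AT4G17740 (0.0368), to CSY3 AT3G23180 (0.0202) and MUG7 (0.0210), and to PMDH1 TADA (0.0283) and RIBA3 (0.0366). Between 138 genes for MLS and 956 for CSY3 lay within 0.1 of these 8, so a near profile is common. PMDH2, at few counts, had no gene within 0.1, with YUC4 nearest (0.107).

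The genes lie on chromosomes 2 to 5 of TAIR10, the build named by the submitters. Their positions are SDP1 (AT5G04040, chr5:1089342-1093204), SDP1L (AT3G57140, chr3:21150242-21153636), CSY2 (AT3G58750, chr3:21724306-21728137), CSY3 (AT2G42790, chr2:17802841-17806073), ICL (AT3G21720, chr3:7652487-7656053), MLS (AT5G03860, chr5:1032099-1034973), PMDH1 (AT2G22780, chr2:9689295-9692154), PMDH2 (AT5G09660, chr5:2993411-2995784) and PCK1 (AT4G37870, chr4:17802690-17806705), SDP1 on the plus strand and the others on the minus strand. CSY3 alone shares exon bases with another annotated gene, 47 bases with AT2G09400 on the opposite strand, which had 3 counts in all libraries together against 230742 for CSY3.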

How the data were processed

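RNA sequencing counts of 18 seed libraries in 6 groups of 3 were analysed. Per the submitters' processing notes, the authors used fastp 0.20.0, HISAT2 2.1.0, featureCounts 2.0.1 and DESeq2 1.34.0 with TAIR10. Values in the table, per the file header, are unnormalised featureCounts counts as the authors deposited them. How strand, read pairs and reads matching several genes were handled is not given in the sources used here.

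Genes with low counts were removed (filterByExpr, minimum count 10), which left 17758 of 32833 genes and took away 0.0393% of counts. All 18 libraries (18249333 to 21036275 counts) were fitted together with edgeR 4.0.16 (R 4.3.3, TMM scaling, quasi-likelihood test, 12 residual degrees of freedom, no replicate block), and 11 comparisons were each adjusted over all genes tested by Benjamini and Hochberg. The SE is the log2 fold change divided by the root of the F statistic. At this depth the spread between libraries sets the precision, and for PMDH2, at few counts, counting error adds to it. Ratios were taken with 0.5 added to each count. Replicates of a group differed by more than sampling noise (chi-square per degree of freedom 6.92 to 32.5), so each counted as 1 sample.

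The 9 genes are named throughout, and from each pathway list up to 4 genes past the threshold with the largest change, and per gene the 2 nearest profiles; 1 result of a pathway gene is not reported here. The genes and lists were chosen with earlier results of these data known. Alternatives were other scalings, no filter on low counts, a replicate block, DESeq2 1.42.0, only the libraries compared, and libraries left out. Positions were checked against the RefSeq genome TAIR10.1, where 32532 of 32548 nuclear genes matched by locus had the same start and end.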

Additional observations from a re-analysis of the deposited data

Results flagged for a closer look

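The imbibition response of MKK3 differed between mkk3-1 and Col-0 by a test of the interaction. The difference was log2 1.06 ± 0.144 (SE, n = 3 libraries a group, adjusted p = 0.0017 in edgeR). MKK3 rose on imbibition in the libraries labelled mkk3-1 (0.68 ± 0.106), which had 12.7, 12.3 and 10.3 CPM imbibed and 7.12, 7.21 and 7.75 CPM dry, and fell in Col-0 (-0.38 ± 0.0982), which had 14.1, 13.4 and 12.5 CPM imbibed and 18.6, 17.3 and 16.2 CPM dry. The cause was not tested.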

How the results depend on the processing

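Direction was followed on imbibition for the 9 genes and in imbibed mutants against Col-0 for PCK1. In dry mutants against Col-0 it was followed for SDP1, ICL, MLS, PMDH1 and PCK1. Scaling turned the direction of 7 of these values, all in imbibition. With library totals SDP1 in Col-0 stood at 0.56, CSY3 at 0.48 in mkk3-1, 0.31 in mpk7_ko3 and 0.39 in Col-0, and CSY2 at 0.023 in mkk3-1, and with upper-quartile factors SDP1 in Col-0 at 0.13 and CSY3 in mkk3-1 at 0.079. Leaving out 1 library, SDP1 in Col-0 ranged from -0.087 to 0.019. Of the 9 genes in dry mkk3-1 against Col-0, 3 passed with DESeq2, 0 with only the libraries compared and 0 to 1 with 1 library left out, against 1 in the main test. In dry mpk7_ko3, 3 passed with DESeq2, 2 without replicate 3 of mpk7_ko3, 0 with library totals, no filter, the replicate block (PMDH1 -0.29, adjusted p = 0.0595) or only the libraries compared, and 0 to 1 with 1 library left out. In imbibed mkk3-1, 1 passed with DESeq2 and 1 with only the libraries compared. In imbibed mpk7_ko3, 1 passed with DESeq2, 1 without replicate 3 and 0 to 1 with 1 library left out. The block changed no other call of the 9 genes, and deviations of same-numbered samples correlated at -0.154 to 0.278 (in mpk7_ko3 between states 0.0435, 0.203 and 0.278), in no comparison above 0.1 for all 3 numbers. Over all genes, calls in dry mkk3-1 against Col-0 were 370 (649 with DESeq2, 230 with only the libraries compared, 130 to 409 with 1 library left out), in imbibed mkk3-1 1412 (2887 with only the libraries compared, 756 to 1003), in dry mpk7_ko3 491 (775, 73 and 146 to 575 in the order first given) and in imbibed mpk7_ko3 1748 (887 to 1386 with 1 library left out). Between the mutants they were 215 in dry seeds (504 with no filter, 610 with DESeq2, 29 with only the libraries compared, 1095 without mpk7_ko3 replicate 3, 33 to 882 with 1 left out) and 60 in imbibed seeds (233, 226 and 454 with no filter, DESeq2 and without replicate 3, 18 to 198). Interaction calls were 22 for mkk3-1 (90 with no filter, 161 with DESeq2, 97 with only the libraries compared, 5 to 78) and 1 for mpk7_ko3 (36 with no filter, 2 with the replicate block, 58 with DESeq2, 7 without replicate 3, 1 to 19). Among ratios of a mutant against Col-0, none past the threshold, PMDH1/PMDH2 in mkk3-1 was 0.0015 with 5 counts added and -0.19 to 0.17 with 1 library left out, and in mpk7_ko3 -0.20 to 0.15, SDP1/SDP1L in mpk7_ko3 was 0.020 without replicate 3 and -0.043 to 0.029, and ICL/MLS in mpk7_ko3 -0.055 to 0.026. Not divided by length, CSY3 ranked 5 and PMDH1 4 in imbibed Col-0. The causes were not tested. The remaining 60 fold changes of the 9 genes stayed short of the threshold in all 927 recomputed values, and changes of their direction were not counted.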
